A study of Arabidopsis thaliana with 12 samples.

Results

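The AP2/ERF transcription factors of Arabidopsis thaliana outside the CBF genes were described across 4 light regimes through a set of 45 loci. The set holds 16 genes of the DREB class, 9 ERF activators, 4 ERF repressors, 5 ERFs of group VII, 4 further stress ERFs, 3 cytokinin response factors, the wax regulator SHN1 and 3 RAV genes. Members were found by locus in the authors' 4 deposited tables of differentially expressed genes, which together list 6519 distinct loci. A gene is listed in a table where its adjusted p was at most 0.05 and its absolute log2 fold change at least 0.5, and 27 of the 45 members were listed in at least 1 table. The set was drawn up with these tables known, and its members were in effect selected on the listings and log2 fold changes of the same 4 comparisons. Those values are therefore a description, and no test was run on them.

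The data are RNA-seq of polyadenylated RNA from leaves of Col-0, the Columbia reference accession, in 12 libraries, 3 per regime. Under SQH (high) and SQL (low) the light stays at 1 level through the day, a square regime. Under FLH (high) and FLL (low) it fluctuates along a natural record of changing light. All plants were wild type, grew from seed of a single parent, were well watered, had been moved to their regime at the 4-leaf stage and acclimated to it for 22 days. Square and fluctuating light of one intensity were matched in their amount over the day and not at the moment of harvest, so the pattern comparisons can include the light at harvest.

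Proteins of the AP2/ERF family carry an AP2 domain that binds DNA. The DREB class is known for binding dehydration-responsive elements with the core CCGAC and for responses to drought, heat and cold, and the ERF class for binding the GCC box before defence genes downstream of ethylene and jasmonate. RAV proteins carry a B3 domain beside the AP2 domain and act in growth and in the timing of flowering.

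The sequence before the start of RAV1, a member that was listed in every table, is shown first. It holds TTGACC, a form of the W-box that WRKY factors bind, on the strand of the gene. The stretch covers chr1:4542018-4542167 on the plus strand in RefSeq's TAIR10.1, with the W-box in capitals.
RAV1: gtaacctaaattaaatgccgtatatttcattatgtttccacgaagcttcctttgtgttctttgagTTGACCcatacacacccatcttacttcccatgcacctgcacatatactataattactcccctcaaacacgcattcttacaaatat
The W-box began 85 bases before the annotated start of RAV1. In a window from 250 bases before to 50 bases after the start, 8 of 45 members held TTGACC on either strand (17.8%), against 14.2% of 27443 protein-coding genes. Of the 8, 4 were listed in at least 1 table, as were 27 of all 45 members. Only TTGACC was searched, so other forms of the W-box were not counted. A match is a description of letters and not a bound site.

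Each listed row gives the mean normalised count, the size-factor-normalised count averaged over the 12 libraries, and a log2 fold change with its standard error (SE). A positive fold change is read as more RNA in the regime named first, as the SEs required in 439 of 439 checks over all genes. The study itself reads the sign in both ways: its plots and its account of a single mutant-tested gene give positive values to the regime named second, while its passage on transposable elements reads the sign as here. Under the opposite reading every direction below would turn round. Values per library were not used here, and the error is the SE of the authors' fit. The libraries of a regime are biological replicates per the study's methods, and how many plants each one holds is not given in the sources used here. In whole leaves fewer cells of a type and less RNA per cell cannot be told apart. In the alignment statistics of the study, every FLL library and 1 library of SQL had a larger share of properly paired reads and fewer singletons than the others. In each fold change against FLL, and in each level given for FLL, this split and the regime cannot be told apart.

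Members were listed most often where FLH was compared. With FLL as its partner, 19 of 45 members (42.2%) were listed, all higher in FLH, while 9.89% of all genes tested were listed, 5.38% as higher and 4.51% as lower in FLH. Between SQH and FLH, 24 members (53.3%) were listed, all lower in SQH, while 22.2% of all genes were listed, 10.1% as higher and 12.1% as lower in SQH. All 43 member fold changes in these comparisons were therefore higher in FLH, and under the opposite reading of the sign all would be lower in FLH.

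Between SQH and SQL, 6 members (13.3%) were listed, 1 higher and 5 lower in SQH. The share over all genes was 3.11%, with 1.57% higher and 1.55% lower in SQH. Between SQL and FLL, 9 members (20%) were listed, 4 higher and 5 lower in SQL, and the share over all genes was 8.2%, with 3.99% higher and 4.21% lower in SQL. Since these tables chose the members, nothing is read from the distance between the shares.

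**Figure D1:**
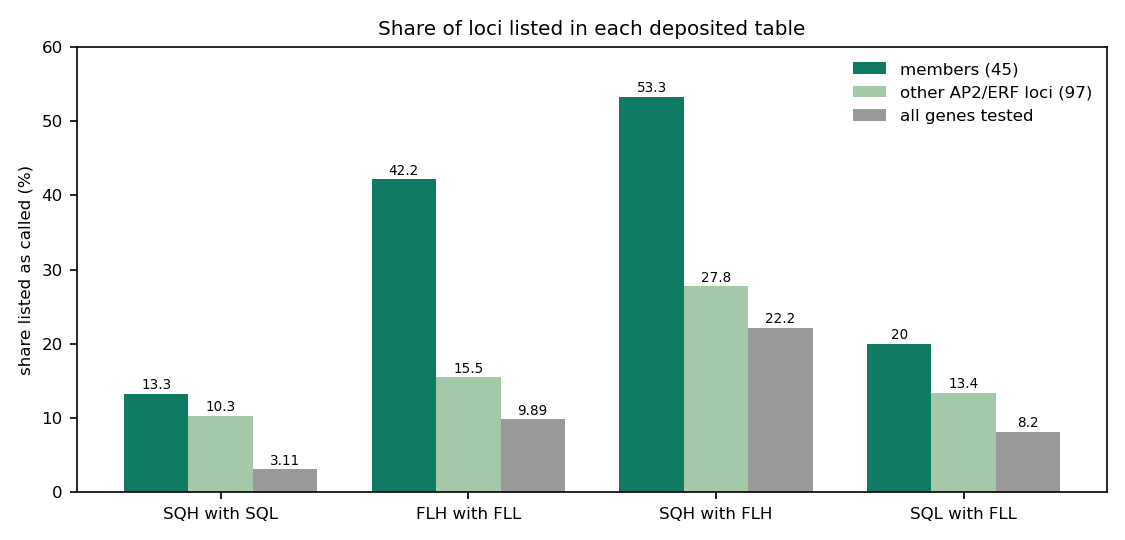
Share of loci listed in each deposited table (vertical axis, percent) for the 45 members, the 97 other AP2/ERF loci of the annotation and all genes tested. Members reach 53.3% between SQH and FLH and 42.2% between FLH and FLL, and they were chosen with these tables known.

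The median absolute log2 fold change of the listed members was 2.6 between SQH and SQL, 2.92 between FLH and FLL, 3.05 between SQH and FLH and 2.55 between SQL and FLL. Over all listed genes it was 2.25, 1.89, 1.80 and 1.80 in the same order of comparisons. The median SE of the listed members was 0.646, 0.757, 0.696 and 0.599, against 0.546, 0.515, 0.492 and 0.521 over all listed genes. With a larger SE a larger fold change is needed for a call, so nothing is read from the distance between the medians. The SE of the 58 member fold changes ran from 0.35 to 1.87. Converted to a coefficient of variation, with equal variance assumed in both regimes, the median was 57.9% and the range 29.5% to 159%. This is the SE of the authors' fit on another scale and no measured spread between replicate libraries. Values close to the threshold on the adjusted p were those of CRF6 between SQL and FLL (adjusted p 0.0486), RAP2.6 between FLH and FLL (0.0448) and ERF13 between SQH and FLH (0.0439), and members past it have no row in the tables.

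**Figure D2:**
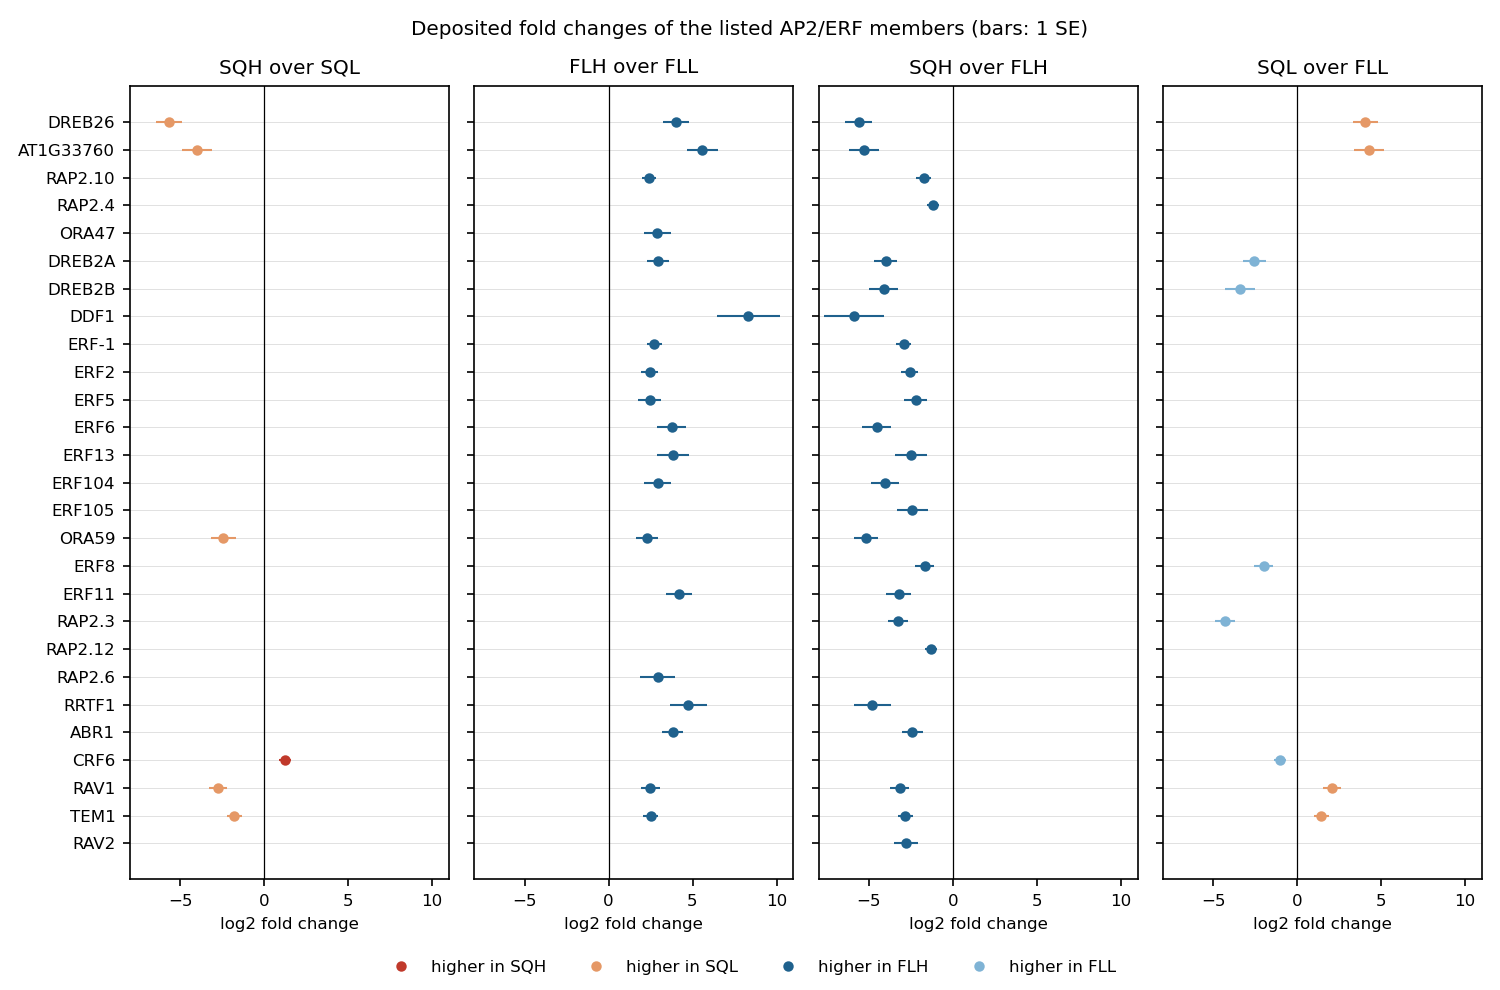
Deposited log2 fold changes of the 27 listed members (horizontal axis, first-named regime over second, bars of 1 SE), coloured by the regime with the higher level. Every point of the 2 panels with FLH lies on the FLH side, and DDF1 has the longest bars, with an SE of 1.87 between FLH and FLL.

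Among the DREB class, DREB26 (AT1G21910, subgroup A-5, chr1:7696427-7697831, 1 exon) had the widest span between regimes of all members for which a level per regime could be computed. These levels follow from the fold changes and the mean normalised count of a gene listed in 3 or 4 tables, and they carry no error of their own. DREB26 stood at 27.6 normalised counts under SQH, 1409 under SQL, 1348 under FLH and 84.4 under FLL. It was high in SQL and FLH and low in SQH and FLL, so intensity had opposite signs under the 2 light patterns. Its log2 fold change was -5.68 between SQH and SQL (SE 0.79, adjusted p 1.57e-09) and 4.0 between FLH and FLL (SE 0.77, adjusted p 2.85e-05). With intensity held, it was -5.61 between SQH and FLH (SE 0.79, adjusted p 1.98e-10) and 4.06 between SQL and FLL (SE 0.77, adjusted p 7.43e-05).

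AT1G33760 (subgroup A-4, chr1:12237547-12238710, 1 exon) had 5.26 normalised counts under SQH, 85.4 under SQL, 209.7 under FLH and 4.36 under FLL. SQL and FLH were the high regimes, as for DREB26, and the mean normalised counts over all regimes were 76.2 for AT1G33760 and 717 for DREB26. Its fold changes were -4.02 between SQH and SQL (SE 0.89, adjusted p 0.000988), 5.59 between FLH and FLL (SE 0.90, adjusted p 1.89e-07), -5.32 between SQH and FLH (SE 0.89, adjusted p 1.69e-07) and 4.29 between SQL and FLL (SE 0.90, adjusted p 0.000442).

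DREB2A (AT5G05410, chr5:1602205-1604112, 3 exons), an activator of drought and heat responses, had another pattern. It stood at 69.7 normalised counts under SQH, 24.8 under SQL, 1127 under FLH and 145 under FLL. In these implied levels both fluctuating regimes lay above both square regimes, and FLH lay far above the rest. FLL was not compared directly with SQH, so the order of these is not settled. The fold change was 2.96 between FLH and FLL (SE 0.66, adjusted p 0.000475), -4.01 between SQH and FLH (SE 0.67, adjusted p 1.47e-07) and -2.55 between SQL and FLL (SE 0.68, adjusted p 0.00907). SQH and SQL were not listed against each other. In DREB2A, 73 bases overlap a neighbour on the other strand, and how the authors' counting treated strand is not given in the sources used here.

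DREB2B (AT3G11020), the close relative of DREB2A, was also lower under square light, at -4.12 between SQH and FLH (SE 0.87, adjusted p 6e-05) and -3.42 between SQL and FLL (SE 0.88, adjusted p 0.00612). Of its 1988 bases, 1086 overlap AT3G11030 on the other strand, so its reads cannot be told apart from those of that gene if strand was not used. DDF1 (AT1G12610), which lowers active gibberellin and dwarfs the plant when overexpressed, was higher in FLH than in FLL by 8.33 (SE 1.87, adjusted p 0.000468) and lower in SQH than in FLH by 5.90 (SE 1.80, adjusted p 0.00823). The SEs of DDF1 were the largest of any member and correspond to a coefficient of variation of 159% and 153%. Its mean normalised count of 193 and its fold changes place the FLL level under 3 counts, so the 8.33 is no precise value.

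RAP2.10 (AT4G36900), a small factor with an EAR repression motif, was higher in FLH than in FLL by 2.39 (SE 0.42, adjusted p 1.9e-06) and stood at -1.75 between SQH and FLH (SE 0.42, adjusted p 0.000414). ORA47 (AT1G74930), an activator of jasmonate synthesis genes, was listed only between FLH and FLL, at 2.91 (SE 0.79, adjusted p 0.00609), and 102 of its bases overlap a locus on the other strand. RAP2.4 (AT1G78080), which links light and ethylene responses, was listed only between SQH and FLH, at -1.21 (SE 0.36, adjusted p 0.00684), the smallest fold change in that table among the members, with a mean normalised count of 4976. The other 8 genes of the class, AT1G19210, AT5G21960, TINY, AT1G22810, AT1G44830, RAP2.1, DREB2C and DDF2, were in no table. Absence says that a gene was not called, and it does not show that its level was alike in the regimes.

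**Figure D3:**
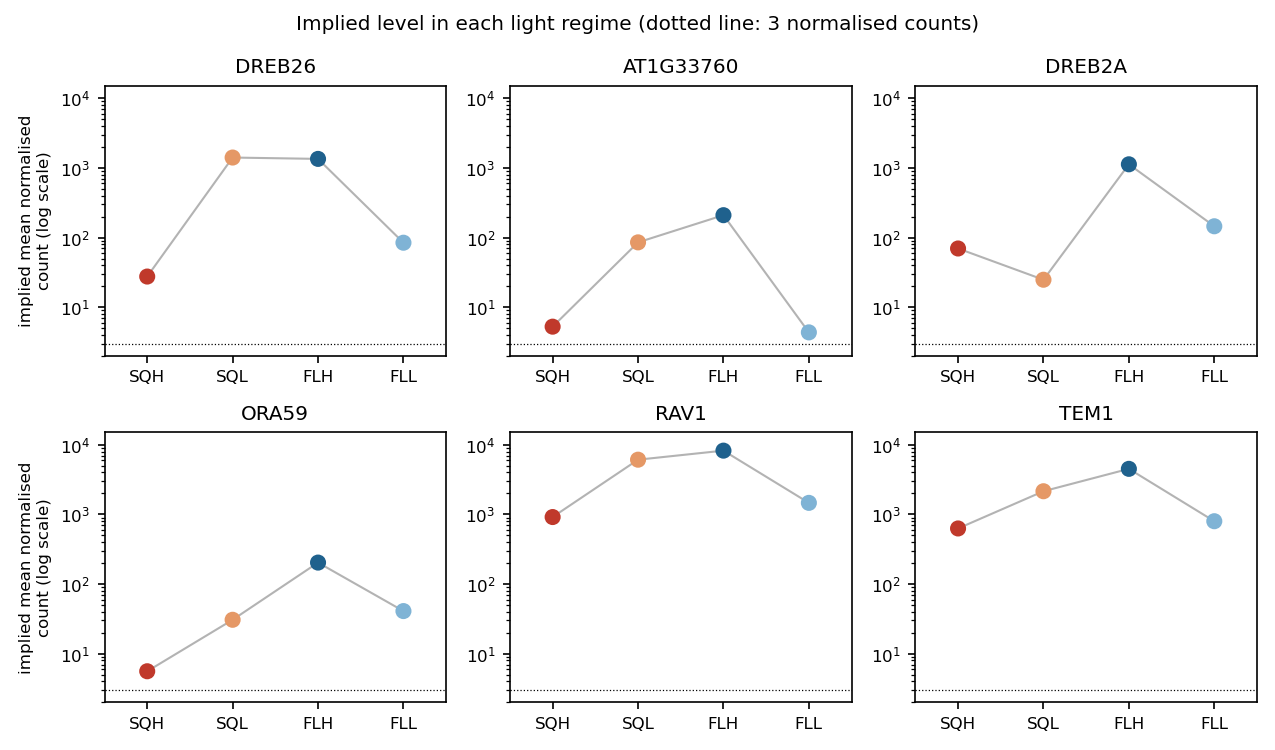
Level of 6 members in each regime (vertical axis, implied mean normalised count on a log scale), computed from deposited fold changes, with 3 counts dotted. DREB26, AT1G33760, RAV1 and TEM1 peak in SQL and FLH, while DREB2A and ORA59 peak in FLH alone.

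Of the 9 ERF activators, 8 were listed between SQH and FLH (22.2% of all genes were) and 7 between FLH and FLL (9.89% of all genes), all higher in FLH, and none between SQL and FLL (8.2% of all genes). ORA59 (AT1G06160, chr1:1882907-1883992), which joins jasmonate and ethylene signals and activates plant defensin genes, had 5.60 normalised counts under SQH, 30.7 under SQL, 203 under FLH and 41.0 under FLL. It was lowest in SQH and highest in FLH. Its fold changes were -2.45 between SQH and SQL (SE 0.74, adjusted p 0.0339), 2.31 between FLH and FLL (SE 0.65, adjusted p 0.00821) and -5.18 between SQH and FLH (SE 0.73, adjusted p 1.92e-10).

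ERF6 (AT4G17490), which acts in growth arrest under osmotic stress and in defence, had the largest ERF activator change between SQH and FLH after ORA59, at -4.55 (SE 0.87, adjusted p 7.29e-06), and was 3.75 between FLH and FLL (SE 0.87, adjusted p 0.000749). ERF104 (AT5G61600), a target of the kinase MPK6 in the response to bacterial flagellin, stood at 2.92 between FLH and FLL (SE 0.81, adjusted p 0.0077) and at -4.04 between SQH and FLH (SE 0.81, adjusted p 1.98e-05). ERF13 (AT2G44840) had 3.83 between FLH and FLL (SE 0.96, adjusted p 0.0026) and -2.49 between SQH and FLH (SE 0.96, adjusted p 0.0439). ERF5 (AT5G47230), a relative of ERF6 with overlapping roles, had 2.46 (SE 0.68, adjusted p 0.00764) and -2.21 (SE 0.68, adjusted p 0.00887) in those tables.

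The smallest SEs of the class were those of ERF-1 (AT4G17500, also ERF1A) and ERF2 (AT5G47220), which activate genes through the GCC box. ERF-1 had 2.73 between FLH and FLL (SE 0.46, adjusted p 7e-07) and -2.93 between SQH and FLH (SE 0.46, adjusted p 2.01e-08). ERF2 had 2.45 (SE 0.52, adjusted p 0.000191) and -2.58 (SE 0.52, adjusted p 2.31e-05). ERF105 (AT5G51190), which acts in cold tolerance, was listed only between SQH and FLH, at -2.43 (SE 0.92, adjusted p 0.0408), and all 965 bases of its gene lie within AT5G51180 on the other strand. ERF1 (AT3G23240), the activator directly downstream of EIN3, was in no table.

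These activators include 2 pairs of neighbours that point away from each other. ERF6 and ERF-1 lie on chromosome 4 with 5041 bases and no annotated locus between them, and ERF2 and ERF5 lie on chromosome 5 with 6924 bases and 2 loci between them. All 4 genes were higher in FLH than in FLL and in SQH. Genes side by side are not independent observations.

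The G-box CACGTG, the element bound by basic helix-loop-helix and bZIP factors, was in the window of 9 of 45 members (20%), against 7.68% of all 27443 genes. Of those 9 members, 7 were listed in at least 1 table, as were 27 of all 45 members. For the 6 listed members in which the box lies far enough inside the window, it is shown with 20 bases on either side, on the strand of the gene, so that the flanks can be compared. The windows are chr4:9759097-9759142 (plus strand) for ERF-1, chr5:19172970-19173015 (minus) for ERF2, chr4:16451722-16451767 (plus) for RRTF1, chr1:1882693-1882738 (plus) for ORA59, chr1:16263702-16263747 (plus) for RAP2.6 and chr3:3455202-3455247 (plus) for DREB2B, all in RefSeq's TAIR10.1, with the G-box in capitals.
ERF-1: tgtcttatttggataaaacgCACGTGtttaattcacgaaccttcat
ERF2: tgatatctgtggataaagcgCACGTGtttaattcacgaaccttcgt
RRTF1: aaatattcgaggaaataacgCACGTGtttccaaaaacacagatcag
ORA59: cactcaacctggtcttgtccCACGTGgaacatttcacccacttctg
RAP2.6: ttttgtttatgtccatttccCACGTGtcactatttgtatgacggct
DREB2B: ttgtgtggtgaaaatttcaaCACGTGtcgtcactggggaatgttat
The windows of ERF-1 and ERF2 were identical at 39 of 46 positions, with an unbroken identical run of 26 bases that holds the box. The other 14 pairs of these windows shared between 12 and 25 positions, and the pair with 25 was ERF2 and RRTF1. The G-box began 86 bases before the start in ERF-1 and 39 bases before it in ERF2. The search for the G-box was added after the tables were known and the windows were chosen for display after the matches were seen.

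ORA59 held 3 of the searched elements within 53 bases, at the far end of its window (chr1:1882657-1882736, plus strand, TAIR10.1). In capitals from the left are the reverse complement of the core CCGAC, the core GCCGCC of the GCC box and the G-box.
ORA59: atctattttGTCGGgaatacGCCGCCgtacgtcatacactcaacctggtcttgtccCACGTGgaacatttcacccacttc

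The full GCC box AGCCGCC was in no member window and in 0.794% of all windows. Its core GCCGCC was in 4 members (8.89%), ORA59, ERF11, ABR1 and CRF6, against 2.57% of all windows. All 4 were listed in at least 1 table, as were 27 of all 45 members, so nothing is read from that count. The dehydration-responsive core CCGAC was in 5 members (11.1%), RAP2.10, ERF5, ORA59, ERF9 and ABR1, against 15% of all windows, and 4 of the 5 were listed. The longer ACCGAC, whose matches are also matches of the core, was in ERF5 alone (2.22% against 5.7%). The remaining searches covered ACGCGT (0 members, 2.1% of all windows), CGCGTT (4.44% of members, 3.4% of all) and the evening element AAAATATCT of the circadian clock (4.44% and 2.82%), which was found in DREB2A and RAP2.2. The forms ACGCGT and CGCGTT, bound by CAMTA factors, can overlap each other. Both strands were read in all 9 searches.

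Among the ERF repressors, ERF11 (AT1G28370), which carries an EAR motif and represses ethylene synthesis genes, was higher in FLH than in FLL by 4.20 (SE 0.76, adjusted p 4.83e-06) and stood at -3.22 between SQH and FLH (SE 0.75, adjusted p 0.000343). ERF8 (AT1G53170), also a repressor with an EAR motif, was listed in both comparisons of light pattern, at -1.68 between SQH and FLH (SE 0.57, adjusted p 0.0189) and -2.01 between SQL and FLL (SE 0.57, adjusted p 0.0138). ERF8 was thus lower under square light at both intensities. ERF4 and ERF9, the other repressors, were in no table.

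Group VII ERFs are destroyed in the presence of oxygen and activate genes for life without it when oxygen is short. RAP2.3 (AT3G16770, chr3:5705541-5707084) had a mean normalised count of 6496 and was lower under square light, at -3.25 between SQH and FLH (SE 0.60, adjusted p 2.72e-06) and -4.28 between SQL and FLL (SE 0.60, adjusted p 2.9e-09). RAP2.12 (AT1G53910), with a mean normalised count of 2972, was listed between SQH and FLH only, at -1.30 (SE 0.35, adjusted p 0.00215). Of the 1366 stretches of 100 bases in the RAP2.12 transcript, 97 (7.10%) occur elsewhere in the genome, and no other member had such a stretch. RAP2.2 and the hypoxia-induced HRE1 and HRE2 were in no table. Of 10 hypoxia-responsive targets, only ADH1 was listed between FLH and FLL, at 3.0 (SE 0.80, adjusted p 0.00499), where 9.89% of all genes were listed. Only LBD41 was listed between SQH and FLH, at -3.28 (SE 0.67, adjusted p 2.83e-05), where 22.2% of all genes were. Nothing is read from these target counts.

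Of the further stress ERFs, RRTF1 (AT4G34410, also ERF109), a regulator of redox and wound responses, was 4.75 between FLH and FLL (SE 1.09, adjusted p 0.000697) and -4.79 between SQH and FLH (SE 1.09, adjusted p 0.000229). It overlaps 2 loci on the other strand, by at most 661 of its 1385 bases with either. ABR1 (AT5G64750), named as a repressor of abscisic acid responses, was 3.82 between FLH and FLL (SE 0.61, adjusted p 1.74e-07) and -2.41 between SQH and FLH (SE 0.60, adjusted p 0.00089), with 109 bases that overlap a locus on the other strand. RAP2.6 (AT1G43160), induced by abscisic acid and jasmonate, was listed at 2.92 between FLH and FLL (SE 1.02, adjusted p 0.0448), and its relative RAP2.6L was in no table.

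In total 11 members were listed between FLH and FLL and between SQH and FLH and nowhere else: RAP2.10, DDF1, ERF-1, ERF2, ERF5, ERF6, ERF13, ERF104, ERF11, RRTF1 and ABR1. They make up 40.7% of the 27 listed members, and the same combination of tables holds 962 of all 6519 listed loci (14.8%). Both comparisons use the FLH libraries. For these 11 the fold changes also fix the level in SQH relative to FLL, which was not compared directly. It ran from -1.12 on the log2 scale in ERF104 to 2.44 in DDF1, whose FLL level under 3 counts makes that value imprecise. The SQH level lay within 0.25 of the FLL level in ERF-1 (-0.20), ERF2 (-0.13), ERF5 (0.25) and RRTF1 (-0.03).

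The cytokinin response factor CRF6 (AT3G61630), which delays leaf senescence under oxidative stress, was the only listed member that was higher in SQH than in SQL, at 1.24 (SE 0.35, adjusted p 0.0219). It stood at -1.02 between SQL and FLL (SE 0.35, adjusted p 0.0486), the smallest fold change of all listed members. SQL was thus the lower regime in both of its comparisons. CRF1, CRF2 and SHN1, an activator of wax and cutin synthesis, were in no table.

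All 3 RAV genes were lower in SQH than in FLH, and 2 of them were listed in every table. Of all genes tested, 22.2% were listed between SQH and FLH, 12.1% as lower in SQH. RAV1 (AT1G13260, chr1:4542168-4543970, 1 exon), which restrains growth, had 917 normalised counts under SQH, 6106 under SQL, 8235 under FLH and 1465 under FLL. The SQL and FLH levels lay above both others, as in DREB26. Its fold changes were -2.74 between SQH and SQL (SE 0.55, adjusted p 0.000198), 2.49 between FLH and FLL (SE 0.55, adjusted p 0.000409), -3.17 between SQH and FLH (SE 0.55, adjusted p 7.04e-07) and 2.06 between SQL and FLL (SE 0.55, adjusted p 0.00929).

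TEM1 (AT1G25560, chr1:8981556-8983314, minus strand, 1 exon), a repressor of the flowering signal FT and of gibberellin synthesis, had 629 normalised counts under SQH, 2152 under SQL, 4511 under FLH and 799 under FLL. FLH was highest and SQH and FLL were lowest. Its fold changes were -1.78 between SQH and SQL (SE 0.45, adjusted p 0.00605), 2.50 between FLH and FLL (SE 0.45, adjusted p 4.01e-06), -2.84 between SQH and FLH (SE 0.45, adjusted p 2.35e-08) and 1.43 between SQL and FLL (SE 0.45, adjusted p 0.0277). RAV2 (AT1G68840, also TEM2), which shares this role, was listed only between SQH and FLH, at -2.80 (SE 0.71, adjusted p 0.00114).

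The 4 members in every table, DREB26, AT1G33760, RAV1 and TEM1, make up 14.8% of the listed members, while 39 of all listed loci (0.598%) were in every table. Each was high in SQL and FLH and low in SQH and FLL. The ratio of highest to lowest level was 51.1 in DREB26, 48.1 in AT1G33760, 8.98 in RAV1 and 7.18 in TEM1. The regimes at each end were not compared directly. On the log2 scale, SQH over FLL came to -1.61 in DREB26, 0.27 in AT1G33760, -0.68 in RAV1 and -0.35 in TEM1, and SQL over FLH to 0.06, -1.30, -0.43 and -1.07 in the same order of genes.

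Genes that supply or sense ethylene were looked up beside the factors, from lists drawn up with earlier results of these data known. Among ethylene synthesis genes, ACS6 (AT4G11280), a synthase of the ethylene precursor, was in every table with the pattern of DREB26, at 695 normalised counts under SQH, 2750 under SQL, 2483 under FLH and 638 under FLL. Its fold changes were -1.98 between SQH and SQL, 1.96 between FLH and FLL, -1.84 between SQH and FLH and 2.11 between SQL and FLL, each with an SE of 0.46. ACS11 was listed at -7.19 (SE 1.32) between SQH and SQL and at -6.23 (SE 1.32) between SQH and FLH. Its implied SQH level was under 3 counts, so these folds are no precise values. Between SQL and FLL it was listed at 3.25 (SE 0.89, adjusted p 0.0106). ACS8 was listed at -3.35 between SQH and FLH.

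Of 12 ethylene receptor and signalling genes, 5 were listed between SQH and FLH, all lower in SQH, and 3 of them between SQL and FLL, all lower in SQL. Of all genes tested, 12.1% were listed as lower in SQH than in FLH and 4.21% as lower in SQL than in FLL. The receptor ETR2, with a mean normalised count of 43.0, stood at -4.29 between SQH and FLH (SE 0.81, adjusted p 5.7e-06). Between SQL and FLL it stood at -2.31 (SE 0.80, adjusted p 0.0476). EBF2, which targets EIN3 for destruction, stood at -2.34 (SE 0.53, adjusted p 0.000181) and -1.63 (SE 0.53, adjusted p 0.0335). CTR1, the kinase that holds the pathway off, stood at -1.09 (adjusted p 0.0482) and -1.30 (adjusted p 0.037). ERS2 and EIN3 were listed at -2.14 (adjusted p 0.0485) and -1.10 (adjusted p 0.0133) between SQH and FLH only. Several of these calls thus lay close to the threshold of 0.05. None of the 12 was listed in a comparison of intensity, where 3.11% (SQH with SQL) and 9.89% (FLH with FLL) of all genes were. With 12 genes, nothing is read from that absence.

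Of 8 defence genes that GCC-box factors are known to activate, 4 were listed between FLH and FLL, all higher in FLH, and 4 between SQH and FLH, all lower in SQH. The shares over all genes in these directions were 5.38% and 12.1%. The defensin PDF1.2C stood at 3.6 between FLH and FLL (SE 0.78, adjusted p 0.000271) and -4.50 between SQH and FLH (SE 0.78, adjusted p 6.11e-07). PR4 stood at 2.88 (SE 0.88) and -4.86 (SE 0.89), and PDF1.2A at 2.31 (SE 0.62) and -1.94 (SE 0.62). The basic chitinase CHIB was listed at 2.73 between FLH and FLL and PDF1.2B at -5.34 between SQH and FLH. ORA59, the activator of these defensins, had the same signs in both tables, as given above. The 3 defensin copies are close in sequence, so reads may have been split between them.

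Of 8 jasmonate synthesis genes that ORA47 is known to bind, 7 were listed between FLH and FLL, where ORA47 itself was listed, and all were higher in FLH, as were 5.38% of all genes tested. OPR3 stood at 4.05 (SE 0.62, adjusted p 2.88e-08), AOC3 at 4.04 (SE 0.73, adjusted p 5.64e-06) and LOX3 at 3.59 (SE 0.58, adjusted p 2.61e-07). In the pattern comparisons ORA47 was not listed, and the jasmonate genes listed were AOC3 (-2.17) and OPR3 (-2.34) between SQH and FLH and LOX3 (1.81) and AOS (1.53) between SQL and FLL.

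Known targets of DREB2A had both signs. Between SQH and SQL, where DREB2A was not listed, GOLS2, a galactinol synthase, was listed at 3.88 (SE 1.01, adjusted p 0.00859). Between FLH and FLL 4 of 8 were listed, all higher in FLH like DREB2A and like 5.38% of all genes, among them RD29A at 4.59 (SE 0.81) and the heat shock factor HSFA3 at 2.33 (SE 0.62). Between SQH and FLH, HSFA3 stood at -2.57 (SE 0.62) and GOLS1, also a galactinol synthase, at 2.26 (SE 0.81), with opposite signs. Between SQL and FLL, where DREB2A was lower in SQL, LEA7 (-7.23, SE 2.2) and GOLS2 (-3.99, SE 1.01) had its sign and COR15A (3.74, SE 0.99) the other.

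The 4 targets of TEM1 and TEM2 were set beside the repressors, and 10.1% of all genes were listed as higher in SQH than in FLH and 3.99% as higher in SQL than in FLL. Between SQH and FLH, FT (3.15, SE 0.78), TSF (5.32, SE 1.39) and the gibberellin synthesis gene GA3OX2 (3.84, SE 1.17) were higher in SQH, where TEM1, RAV1 and RAV2 were lower. Between SQL and FLL, FT (3.95, SE 0.84), TSF (6.24, SE 1.69), GA3OX1 (4.0, SE 0.93) and GA3OX2 (5.22, SE 1.25) were higher in SQL, where TEM1 and RAV1 were higher too. None of the 4 was listed in a comparison of intensity, where 3.11% (SQH with SQL) and 9.89% (FLH with FLL) of all genes were. The mean normalised counts of FT, TSF and GA3OX2 were 15.7, 17.2 and 38.2. With these fold changes TSF lay under 3 counts in both FLH and FLL. FT and GA3OX2 lay under 3 counts in at least 1 of these regimes, so such folds are no precise values.

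**Figure D4:**
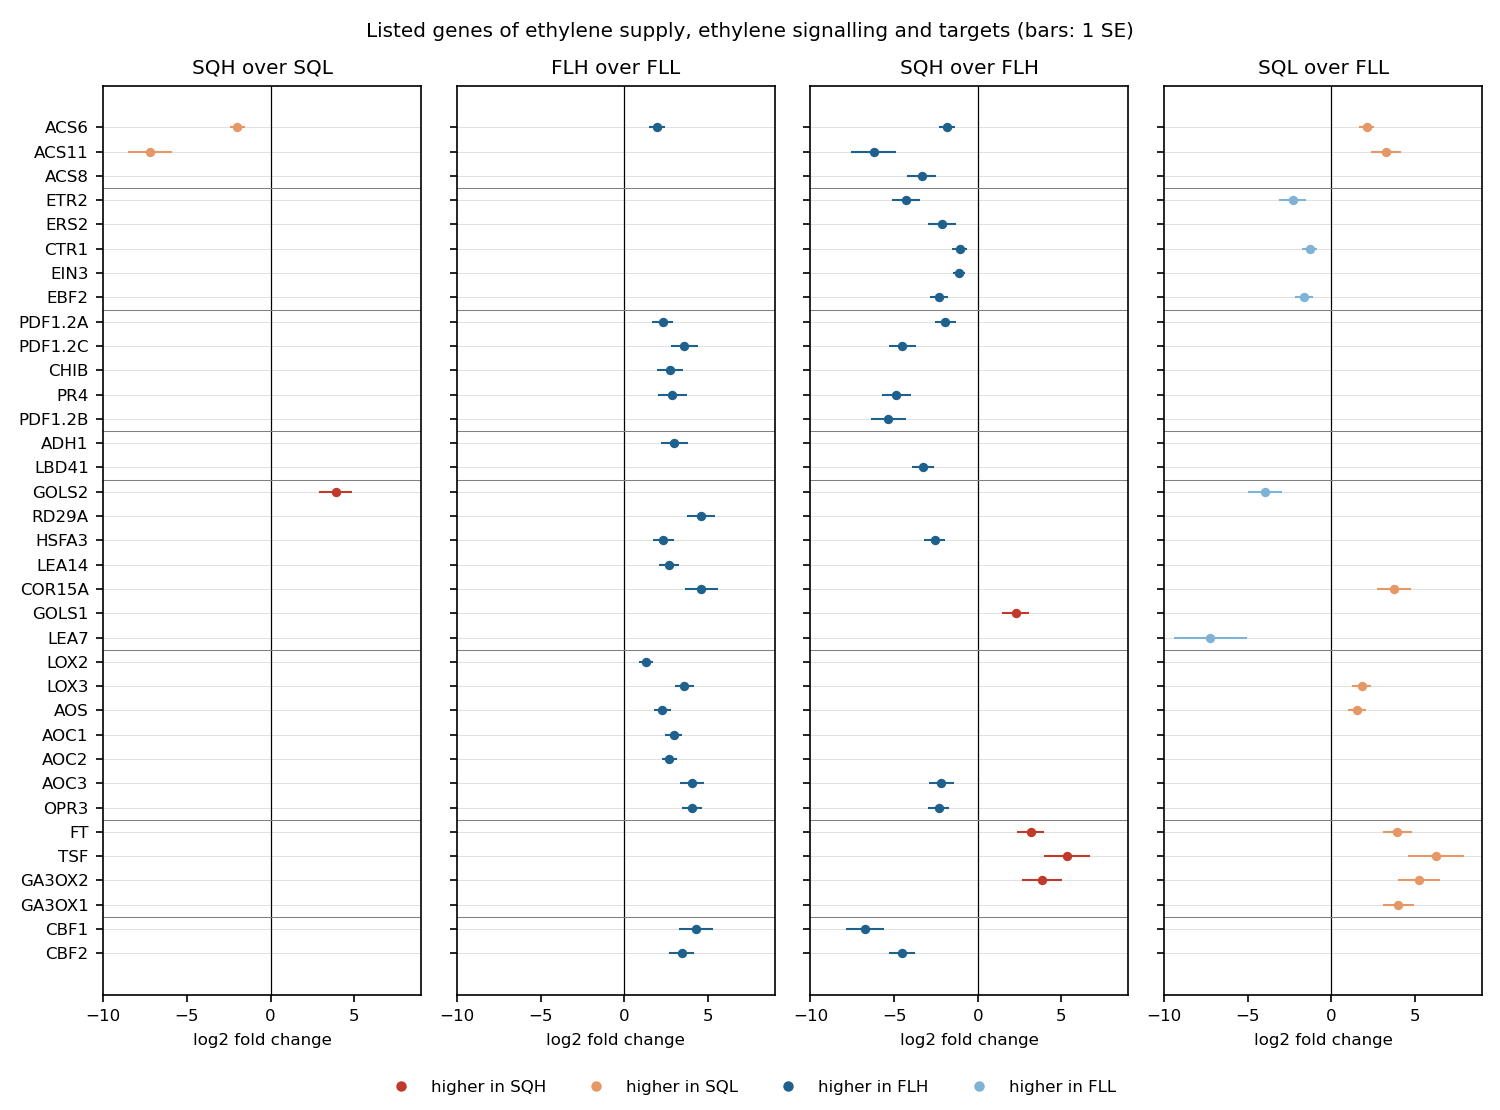
Deposited log2 fold changes (horizontal axis, first-named regime over second, bars of 1 SE) of listed genes from the ethylene, defence, hypoxia, DREB2A, jasmonate and TEM target lists and of CBF1 and CBF2, with lines between lists. The ethylene signalling genes lie on the fluctuating side, 7 jasmonate genes lie on the FLH side against FLL, and the TEM targets lie on the square side.

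Of the 4 CBF genes, the DREB factors of the cold response that the set leaves out, 2 were listed and 2 were in no table. CBF1 was listed at 4.28 between FLH and FLL (SE 1.01) and -6.74 between SQH and FLH (SE 1.13), and CBF2 at 3.45 (SE 0.75) and -4.55 (SE 0.77). The mean normalised count of CBF1 was 68.2, which with its fold changes places SQH under 3 counts, so the -6.74 is no precise value. Of the 97 AP2/ERF loci in the annotation that are neither members nor CBFs, 27 were listed between SQH and FLH, 12 higher and 15 lower in SQH, so both signs occurred there while all 24 listed members were lower in SQH. Between FLH and FLL the other loci gave 13 higher and 2 lower in FLH. The members were chosen with these tables known, and the difference was not tested.

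The mesophyll markers RCA and CAB2 had mean normalised counts of 503060 and 292634. Of 11 markers chosen for mesophyll, guard cells, roots and vessels, 6 were listed between FLH and FLL (9.89% of all genes). Between SQH and FLH 6 were listed (22.2% of all genes), and most members were listed in these same comparisons. All libraries are of leaves, so GL2, SCR and CESA4 do not mark root cells here. Between FLH and FLL, CAB2 (-1.97), LHCB2.1 (-1.73), RCA (-1.83), the guard cell gene MYB60 (-1.07) and SCR (-1.04) were lower in FLH and GL2 (1.70) was higher. Between SQH and FLH, RBCS2B (1.84), RCA (1.63), MYB60 (1.27), FAMA (0.97), CESA4 (0.78) and SCR (1.38) were higher in SQH. Their part in the members' fold changes was not tested.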

How the data were processed

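Reads were aligned by the authors to TAIR10 with HISAT2, counted with featureCounts per the labels and tested by the authors with DESeq2, with 3 libraries per regime. Settings of the counting, strand included, are not given in the sources used here. The deposited tables hold a signal (the mean normalised count), a log2 fold change with its SE, the Wald score that the authors took as fold change over SE, and each row's p-value from the authors, raw and after Benjamini-Hochberg adjustment. These comparison columns are the only values used here, and they were described and not refitted. Depth per library is unknown from them. Score multiplied by SE returned the fold change, so it was not shrunken. In 439 of 439 checks of SEs over all genes, 14 of 14 for members, a positive fold change meant more RNA in the first-named regime. How many genes were tested follows from adjusted p divided by p.

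Members and lists were chosen with earlier results of these data known. Every member was accounted for: those in 3 or 4 tables with implied levels, those in 2 or 1 with their fold changes, the rest by name. Loci were matched to RefSeq's TAIR10.1, with 6510 of 6519 listed loci and 45 of 45 members found, and 1 repeated identifier was set aside. A gene of the ethylene synthesis list and a promoter sequence are not reported here. The tables carry no coordinates, and those printed are of TAIR10.1. Motifs were searched from 250 bases before to 50 after each annotated start. The GCC box and the core CCGAC, with a longer or shorter form of each, were in the plan and the other motifs were added later. The scripts were tested on simulated data and used Python 3.11.15, pandas 2.3.3 and numpy 2.4.6.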

Additional observations from a re-analysis of the deposited data

How the results depend on the processing

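Requiring an adjusted p of at most 0.01 kept 49 of the 58 member fold changes. A log2 fold change of 1 or more in size or a mean normalised count of at least 10 kept all 58. Neither of these settings could drop any, because the smallest fold change in size was 1.02 and the lowest mean normalised count 70.2. A Bonferroni adjustment over the genes tested kept 24 and dropped 34. Under it 2 members were called between SQH and SQL, 7 between FLH and FLL, 12 between SQH and FLH and 3 between SQL and FLL, with 15 called at least once and 1 in every table, against 6, 19, 24, 9, 27 and 4 as deposited. The counts of windows with the GCC box were 0 for AGCCGCC and 4 for its core GCCGCC, and those of the dehydration-responsive core were 5 for CCGAC and 1 for ACCGAC. No paired analysis was possible because the tables used here hold no values per library, so neither a replicate block nor leaving out each replicate was run. How far a single library decides any fold change is unknown, and the implied levels carry no error.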

Other observations

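Among the 97 AP2/ERF loci outside the set and the CBFs, 36 were listed in at least 1 table (37.1%), while the 6519 loci listed in any table are at most 30.5% of the genes tested. AT1G77640 was the only one of the 97 in every table, where the fold change of SQH over SQL was -4.10 (SE 0.92), that of FLH over FLL 3.45 (SE 0.90), that of SQH over FLH -4.71 (SE 0.92) and that of SQL over FLL 2.83 (SE 0.90). Its implied levels were 8.96 normalised counts under SQH, 153 under SQL, 234 under FLH and 21.5 under FLL. They ran in the order of implied levels seen in RAV1 and TEM1. SQH was not compared directly with FLL, nor SQL with FLH, so the order within those pairs is not settled. AT5G61590 stood at 176 under SQH, 3340 under SQL, 5522 under FLH and 1980 under FLL, so it was low in SQH alone.

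In their implied levels, ERF53 and AT4G28140 had the order of regimes of DREB2A. ERF53 stood at 45 normalised counts under SQH, 7.12 under SQL, 571 under FLH and 70.3 under FLL, and AT4G28140 at 54.2 under SQH, 12.8 under SQL, 1582 under FLH and 165 under FLL. ERF15 had the reverse of the order of RAV1 and TEM1, at 988 under SQH, 330 under SQL, 217 under FLH and 497 under FLL. Its implied level was highest in the regime where that of DREB26 was lowest. These orders rest in part on SQH against FLL and SQL against FLH, which were not compared directly, so they are not settled. ESE3, an ethylene-induced factor, was lower in SQH than in SQL at -3.32 (SE 0.55, adjusted p 1.23e-06) and lower in SQH than in FLH at -3.39 (SE 0.55, adjusted p 7.11e-08). CEJ1, also DEAR1, stood at 4.09 between FLH and FLL (SE 0.65) and -4.36 between SQH and FLH (SE 0.65). These loci were picked after their values were seen.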
